A study of Mus musculus with 13 samples.

Results

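The 82 genes described here encode subunits of the 5 enzyme complexes of oxidative phosphorylation and close relatives of those subunits. They were taken by symbol from the probe sets that the platform table assigns to a single gene: symbols beginning with Nduf (other than Ndufaf), Uqcr, Atp5 or Cox4 to Cox8, and Sdha, Sdhb, Sdhc and Sdhd. This gave 82 of 19937 genes, of which 34 were placed in complex I, 4 in complex II, 8 in complex III, 19 in complex IV and 17 in complex V. Ndufa4 and its relative Ndufa4l2 were counted with complex IV, where the Ndufa4 protein is now placed. The members had 106 probe sets, 17 of the genes had more than 1, and the set with the highest mean stood for the gene. A further 6 probe sets named a gene of this kind together with other genes and were left out. The symbols Cox7c, Ndufb4, Ndufb4b and Ndufs5-ps occurred only in those and were not analysed here.

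Oxidative phosphorylation makes ATP in the inner mitochondrial membrane. Complexes I and II pass electrons from NADH and succinate to ubiquinone, complex III passes them on to cytochrome c, and complex IV hands them to oxygen, while complex V, the ATP synthase, uses the proton gradient that complexes I, III and IV build. Nearly all subunits are encoded in the nucleus and a few in mitochondrial DNA. Several complex IV subunits exist as a widely expressed form and as a form of muscle, testis or lung. Mutant Braf is a frequent driver of naevi and melanoma, and melanomas are known to differ in how strongly they use this programme.

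Gene expression was measured on 13 whole-transcript Affymetrix arrays of mouse cells and lesions in 6 groups, all of them in vivo specimens. The sorted groups were melanocytes purified by flow cytometry: Cdkn2a/Braf cells at day 19 (2 arrays), which the labels place before growth arrest, Cdkn2a/Braf cells at day 50 (2 arrays), placed after it, and Cdkn2a-only cells with wild-type Braf at day 19 (2 arrays). The other groups were tissue taken without culture. They comprised 3 arrays of pooled melanocytic proliferations of Lkb1/Braf genotype, 2 arrays of melanoma with Cdkn2a, Braf and Lkb1 alterations, and 2 of melanoma with Cdkn2a and Braf alterations only. The altered Braf allele is BrafV600E by the title of the series. All groups except the proliferations carry the Cdkn2a alteration, and the Cdkn2a-only cells alone lack mutant Braf. The labels used here do not name the promoter that drove recombination. The samples of a group are called biological replicates by the labels, and with 2 or 3 arrays in each the precision is limited by their number.

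The sorted groups had high levels of melanocyte markers, and the melanomas did not. A level here is log2(intensity + 1). The median of 12 melanocyte markers was 11.57 on both Cdkn2a/Braf day 19 arrays, 9.30 and 10.00 at day 50, 7.14 to 7.29 in the proliferations and 5.47 to 6.06 in the melanomas. In the melanomas Dct, the dopachrome tautomerase of pigment synthesis, was at 4.8 to 5.9, near the bottom of the scale, against at least 12.69 in the sorted cells, and the groups are called by their labels.

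The width of the value distribution differed between the groups, and this bears on every comparison below. The interquartile range over all genes was 2.52 to 2.58 on the sorted day 19 arrays, 1.93 and 1.94 at day 50, 2.00 to 2.11 in the proliferations and 2.45 to 2.89 in the melanomas. The oxidative phosphorylation genes were bright: 74 of 82 were in the 25% of genes with the highest mean level (4985 genes, called the brightest 25% below), and 6 lay below the median gene. The median level of the brightest 25% was 8.94 and 8.99 on the Cdkn2a/Braf day 19 arrays, 8.43 and 8.46 at day 50 and 8.30 to 8.43 in the proliferations, against 8.83 to 8.98 in the melanomas. The differences below are therefore given for the values as deposited and under 4 other scalings: centring each array on its median, quantile normalization, centring on the brightest 25% of genes, and a common interquartile range.

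**Figure D1:**
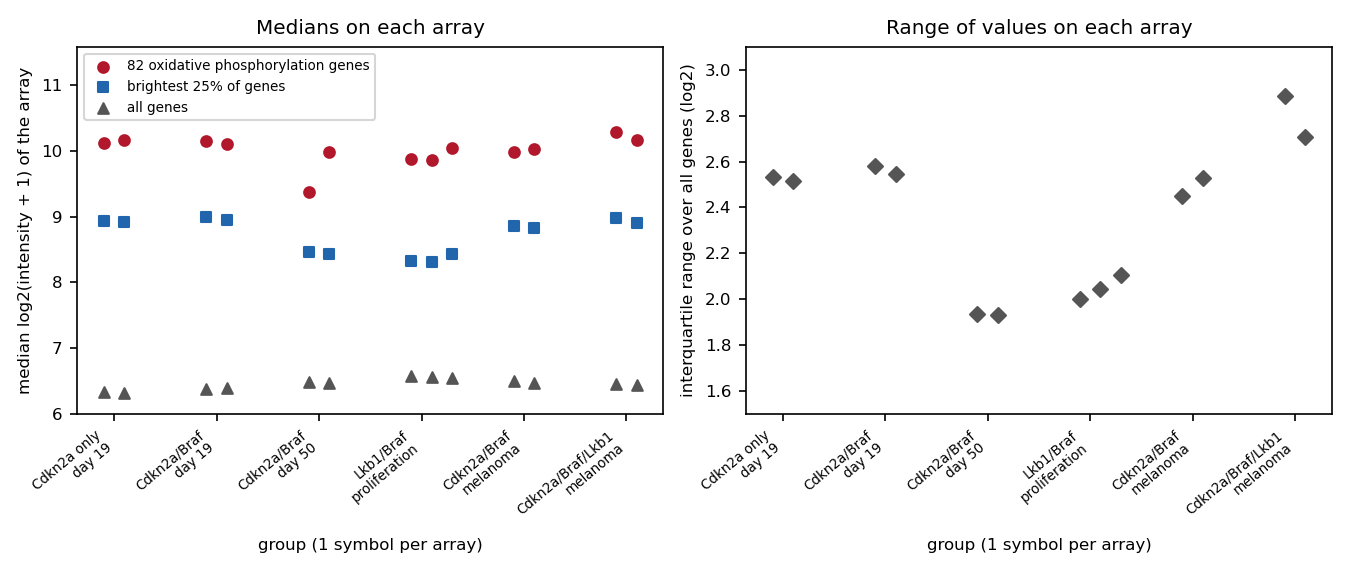
Left, the median log2(intensity + 1) of the 82 oxidative phosphorylation genes, of the brightest 25% of genes and of all 19937 genes on each array, 1 symbol per array, by group. Right, the interquartile range over all genes on the same arrays, which is 1.93 and 1.94 on the day 50 arrays and 2.00 to 2.11 on the proliferation arrays, below all other groups.

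The median member stood at 10.12 and 10.17 on the Cdkn2a-only arrays, 10.16 and 10.11 on the Cdkn2a/Braf day 19 arrays, 9.38 and 9.98 at day 50, 9.88, 9.86 and 10.05 in the proliferations, 9.99 and 10.02 in the Cdkn2a/Braf melanomas and 10.28 and 10.16 in the Cdkn2a/Braf/Lkb1 melanomas. The first day 50 array was the lowest of the 13, and the others lay between 9.86 and 10.28. By rank within each array, the median member lay at a percentile of 93.7 on that day 50 array, 96.5 on the other, 96.5 to 96.6 in the proliferations, and 94.9 to 95.9 on the remaining arrays. The proliferations thus ranked high although their median level was low.

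**Figure D2:**
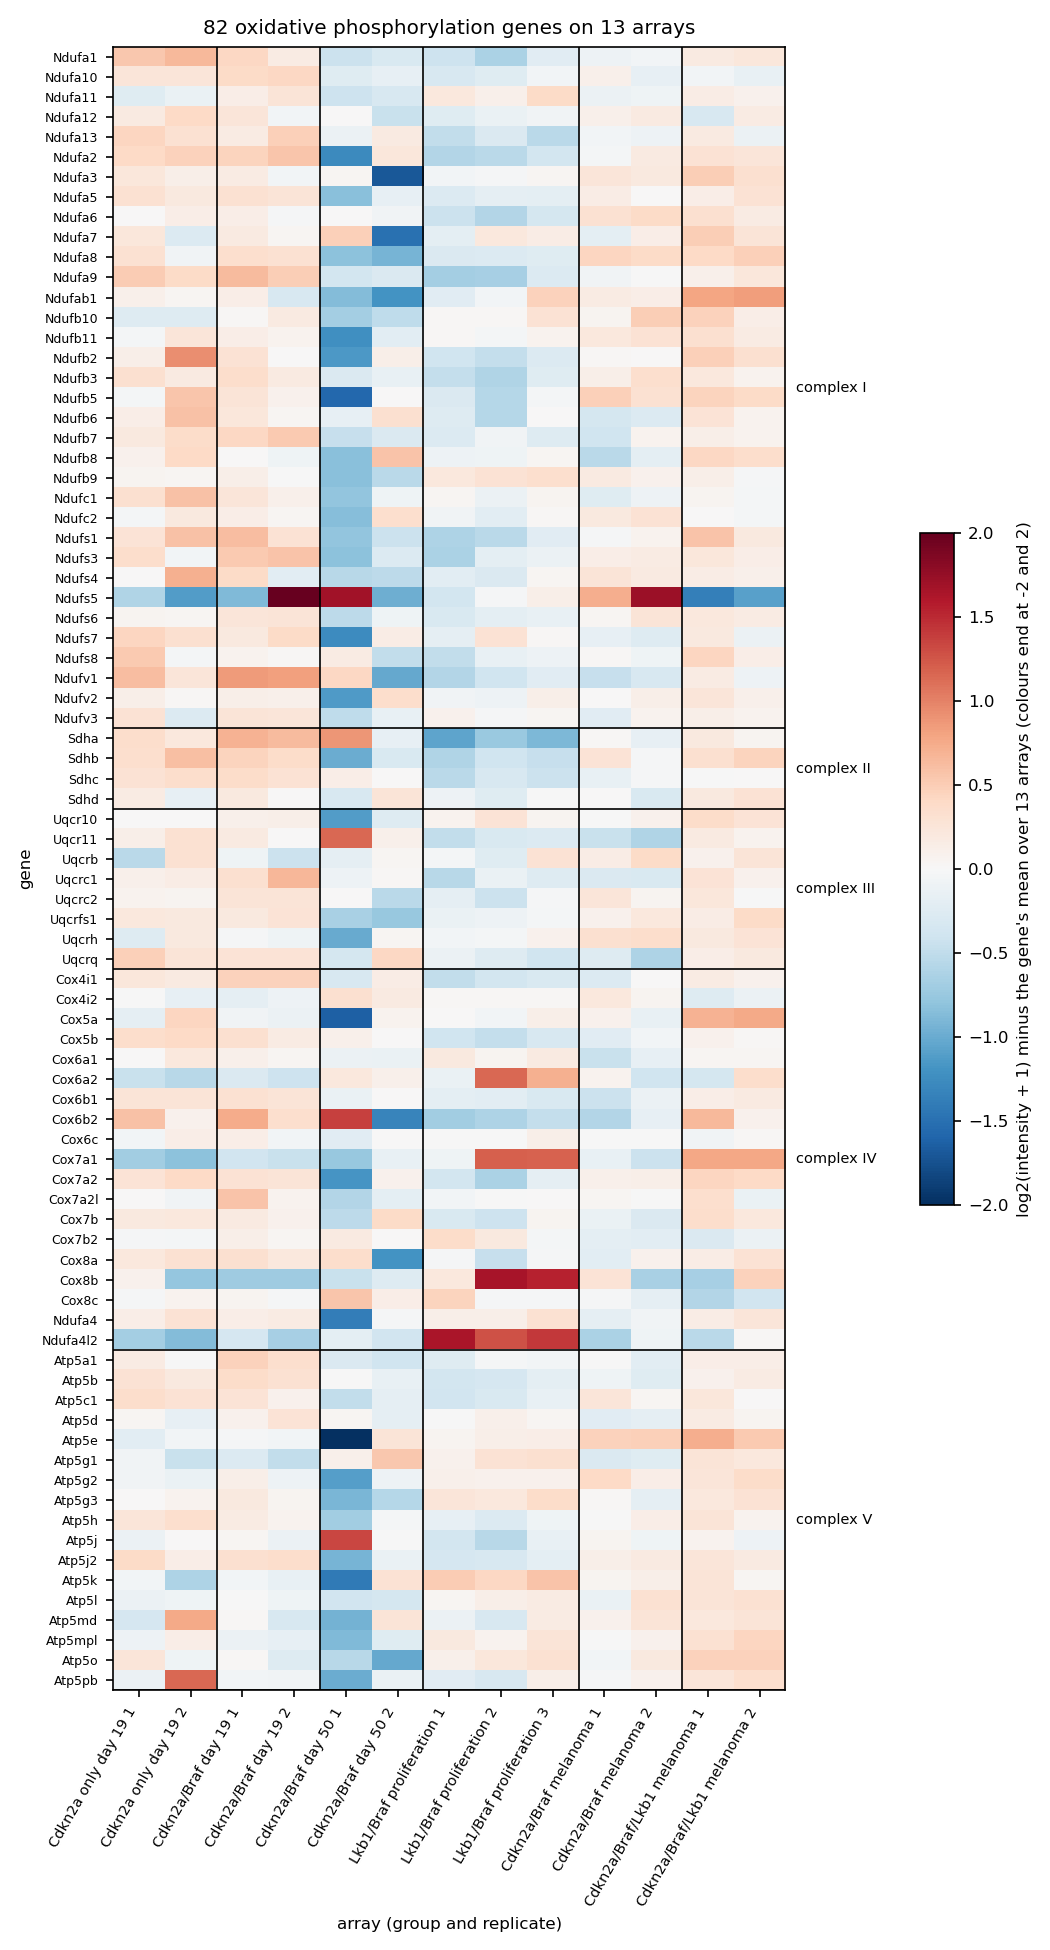
Level of each of the 82 genes (rows, grouped by complex) on each of the 13 arrays (columns), as log2(intensity + 1) minus the gene's mean over all arrays. The first day 50 array holds the most low values, and its partner differs from it in many genes. Ndufa4l2 stands out on the 3 proliferation arrays and Cox8b on proliferation arrays 2 and 3.

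The first comparison set Cdkn2a/Braf melanocytes after growth arrest against the same genotype before it. At day 50, 28 of the 82 genes were lower and 2 were higher than at day 19 (limma, Benjamini-Hochberg adjusted p under 0.05 over all genes). Of all 19937 genes 14.5% were lower and 11.1% higher, and of the brightest 25% 37.0% were lower and 4.63% higher. The members' 34.1% lower was near the share of the brightest 25% and is not read as a result about the members. That set was not matched to the members in level: its median was 8.94 and 8.99 at day 19, against 10.11 and 10.16 for the members. The median difference of the members was -0.52, equal to the -0.52 of the brightest 25%, while that of all genes was 0.17. In sorted cells, as in tissue, fewer cells of a type and less RNA per cell cannot be told apart.

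The calls turned with the scaling. Centring on the array median gave 1 higher and 32 lower members, where 5.19% and 16.4% of all genes and 3.51% and 41.2% of the brightest 25% were called. Quantile normalization gave 2 higher and 5 lower with a median of -0.19, where 7.35% and 8.03% of all genes and 10.2% and 14.7% of the brightest 25% were called. The members' shares of lower calls, 39.0% and 6.1%, lay below those of the brightest 25%. Centring on the brightest 25% gave 12 higher and 5 lower, where 60.5% and 7.25% of all genes and 20.5% and 19.0% of the brightest 25% were called. A common interquartile range gave 22 higher and 3 lower with a median of 0.33, where 10.4% and 16.5% of all genes and 21.8% and 14.8% of the brightest 25% were called. Only Ndufa8 was called lower and only Atp5g1 higher in all 5 scalings. When limma was fitted on the arrays of these groups alone, no member passed, with 26 at an unadjusted p under 0.05, and of all genes 0.196% were higher and 1.26% lower.

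Ndufa8 is an accessory subunit of complex I that sits on the intermembrane side. Its level was 9.23 and 9.20 in the Cdkn2a/Braf cells at day 19, 8.08 and 7.96 at day 50, and 9.19 and 8.83 in the Cdkn2a-only cells. Both day 50 arrays lay below all other arrays of the series. The day 50 level fell by 1.19 on the log2 scale (SE 0.13, limma adjusted p = 0.0003), by 0.67 with bright-gene centring, and it was called without each of the 4 arrays in turn.

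Atp5g1 encodes 1 of 3 gene copies of the c subunit, whose mature protein forms the rotating ring of the ATP synthase. It read 8.53 and 8.31 at day 19 and 8.90 and 9.34 at day 50, with no overlap. The day 50 level was higher by 0.70 (SE 0.18, limma adjusted p = 0.0203) and by 0.61 to 1.36 over the scalings. The call rested on few arrays, since it was kept in 1 of 4 fits that left out an array, and the mean of the gene's probe sets gave 0.45 (SE 0.17, limma adjusted p = 0.067). Atp5g3, a second copy for the same mature protein, went the other way: it read 11.28 and 11.13 at day 19 and 10.17 and 10.52 at day 50, a fall of 0.86 (SE 0.14, limma adjusted p = 0.00268), which a common interquartile range turned to 0.28. Atp5g2, the third copy, differed by -0.61 (SE 0.26) and did not pass (limma adjusted p = 0.0971).

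The 300-base windows around the RefSeq gene starts of Ndufa8, Atp5g3 and Atp5g1 are shown because these genes changed in opposite directions as deposited. With a common interquartile range Atp5g3 and Atp5g1 differed by 0.28 and 1.36. Windows are from GRCm38.p6 and take 250 bases before and 50 from the start. They are printed 5′ to 3′ on the gene's strand, the minus strand in each case. Ndufa8 lies at chr2:36049289-36049588, Atp5g3 at chr2:73911277-73911576 and Atp5g1 at chr11:96075582-96075881. Capitals mark matches to the NRF1 motif GCGCANGCG on either strand; NRF1 is a known activator of nuclear genes for respiration. The Atp5g3 and Ndufa8 windows held 1 and 2 matches. The Atp5g1 window held no match to this motif. Of the 24 genes with a window that were lower at day 50 as deposited, 9 held the motif. Of the other 43 genes with a window, 10 did. The part of the motif in the day 50 differences was not tested.
Ndufa8: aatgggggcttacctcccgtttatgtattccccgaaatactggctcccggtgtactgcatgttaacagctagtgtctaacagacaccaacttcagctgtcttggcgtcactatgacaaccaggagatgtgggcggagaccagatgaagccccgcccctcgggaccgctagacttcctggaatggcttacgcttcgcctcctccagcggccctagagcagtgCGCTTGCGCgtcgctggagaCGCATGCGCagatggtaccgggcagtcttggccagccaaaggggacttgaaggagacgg
Atp5g3: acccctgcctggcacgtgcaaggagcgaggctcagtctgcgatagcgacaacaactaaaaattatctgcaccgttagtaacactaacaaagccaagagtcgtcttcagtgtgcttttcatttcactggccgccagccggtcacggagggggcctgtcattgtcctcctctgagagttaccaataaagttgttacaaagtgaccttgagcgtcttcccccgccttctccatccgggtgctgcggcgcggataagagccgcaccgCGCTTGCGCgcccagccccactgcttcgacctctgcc
Atp5g1: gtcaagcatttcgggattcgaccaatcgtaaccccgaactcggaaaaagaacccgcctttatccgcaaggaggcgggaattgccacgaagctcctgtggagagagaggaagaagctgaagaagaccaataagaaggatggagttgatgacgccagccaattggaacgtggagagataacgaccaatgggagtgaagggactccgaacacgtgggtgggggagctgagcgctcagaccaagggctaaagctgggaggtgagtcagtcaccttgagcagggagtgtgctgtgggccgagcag

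Complex I held 16 of the 28 lower members and none higher, out of 34, with a median difference of -0.64, where 37.0% of the brightest 25% of genes were lower. With bright-gene centring it gave 1 higher and 4 lower, and with a common interquartile range 4 higher and 1 lower at a median of 0.20. Of its 6 core subunits measured, most of which carry the flavin or iron-sulphur clusters, 3 fell. Ndufv1, the flavoprotein that takes electrons from NADH, read 9.48 and 9.45 at day 19 and 9.05 and 7.61 at day 50, a fall of 1.13 (SE 0.36, limma adjusted p = 0.0439) that was kept in 1 of 4 fits without an array. Ndufs3, a core subunit next to the quinone arm, read 10.39 and 10.43 at day 19 and 9.04 and 9.60 at day 50 and fell by 1.09 (SE 0.22, limma adjusted p = 0.0076). Quantile normalization, bright-gene centring and a common interquartile range all kept Ndufv1, Ndufs3 and Ndufa8 below 0, by at least 0.24.

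Complexes II and III gave 4 lower members of 12 as deposited. Of all genes 14.5% were lower, and of the genes used for bright-gene centring 37.0%. The count is therefore not read as a result about these complexes. Sdhb, the iron-sulphur subunit of succinate dehydrogenase, read 9.78 and 9.69 at day 19 and 8.33 and 9.02 at day 50 and fell by 1.06 (SE 0.21, limma adjusted p = 0.00661). The flavoprotein Sdha differed by -0.30 (SE 0.27, limma adjusted p = 0.397), with 11.00 and 9.94 at day 50 around the 10.80 and 10.74 of day 19. The membrane anchors Sdhc and Sdhd differed by -0.25 and -0.14 and did not pass. In complex III, Uqcrfs1, the Rieske iron-sulphur protein, read 8.99 and 9.06 at day 19 and 8.14 and 8.04 at day 50, without overlap. It fell by 0.94 (SE 0.12, limma adjusted p = 0.000673) and was called in 4 of 5 scalings and without each array. Uqcr10, a small subunit, fell by 0.80 (SE 0.22) and the core protein Uqcrc1 by 0.53 (SE 0.17), the latter losing its call when any of the 4 arrays was left out.

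Complex IV gave 2 lower members and 1 higher one of 19, where 14.5% of all genes were lower and 11.1% higher. Of its 11 widely expressed members 2 fell: Cox4i1, the regulatory subunit that binds adenine nucleotides, by 0.55 (SE 0.16, limma adjusted p = 0.0373), and Cox7a2l, which helps join complexes III and IV, by 0.72 (SE 0.20, limma adjusted p = 0.03). Both turned upward with a common interquartile range, to 1.05 and 0.59. Of the 8 tissue isoforms, Cox4i2, the form of hypoxic cells and lung, was higher by 0.39 (SE 0.12, limma adjusted p = 0.039) at a dim level of 6.15 and 6.23 at day 19 and 6.66 and 6.51 at day 50. That call was lost with median centring, quantile normalization and a common interquartile range (limma adjusted p = 0.0927, 0.0896 and 0.0833), and kept in 1 of 4 fits without an array. The other isoforms did not pass: Cox6a2 differed by 0.52, Cox6b2 by -0.52, Cox7a1 by -0.04, Cox7b2 by 0.02, Cox8b by 0.35, Cox8c by 0.33 and Ndufa4l2 by 0.21. Nor did their partners, Cox6a1 at -0.20, Cox6b1 at -0.34, Cox7a2 at -0.82, Cox7b at -0.21, Cox8a at -0.68 and Ndufa4 at -0.85.

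In the ATP synthase 6 of 17 members were lower and Atp5g1 was higher as deposited, and 8 were higher and 0 lower with a common interquartile range. Of the genes used for bright-gene centring 37.0% were lower and 4.63% higher as deposited. With a common interquartile range 14.8% of those genes were lower and 21.8% higher. The lower count as deposited is therefore not read as a result about the complex. The catalytic head gave 3 of 5 lower. Its alpha subunit Atp5a1 read 11.56 and 11.43 at day 19 and 10.80 and 10.70 at day 50 and fell by 0.74 (SE 0.13, limma adjusted p = 0.00394), in each fit without an array. Atp5j2, the f subunit of the membrane part, fell by 0.86 (SE 0.22, limma adjusted p = 0.0188), and was kept in 1 of 4 such fits. With a common interquartile range Atp5a1 was at 0.52 and Atp5j2 at 0.55.

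The day 50 arrays disagreed with each other over all genes, with a standard deviation of the difference of 0.703 across genes against 0.271 to 0.404 for pairs in the other groups. The members shared in this. The members' median range between the paired arrays was 0.48, against 0.10 to 0.22 in the other groups, and 24 members differed by more than 1, against 0 to 3 elsewhere. Members with the widest gaps, picked out after their values were seen, went both ways: Atp5e, the epsilon subunit of the head, read 8.55 and 11.25, and Cox5a, another subunit of complex IV, read 8.53 and 10.23. The testis form Cox6b2 read 9.64 and 6.96, Ndufa3 read 8.86 and 7.13 and Ndufa7 read 8.62 and 6.66. The count of lower members moved both ways around 28 when an array was left out. Each such fit left 1 array in a group and has no share of all genes beside it, so its counts are not read as a result about the members. The median without an array ran from -0.67 to -0.30.

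Markers of other cell types moved with the day. Melanocyte markers were lower in 8 of 12 cases, and their summed level was 15.53 to 15.63 at day 19 and 14.59 to 15.00 at day 50 (log2 of summed intensity). Of 8 endothelial markers 7 were higher (a range of 9.08 to 9.21 at day 19 and 10.15 to 11.78 at day 50). Of 8 fibroblast markers 5 were higher and 1 lower (10.02 to 10.17, then 12.00 to 12.23), and of 8 keratinocyte markers 2 were higher (11.31 to 11.56, then 13.62 to 13.98). Of the 11 skeletal muscle markers none passed. Their part in the member differences was not tested.

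**Figure D3:**
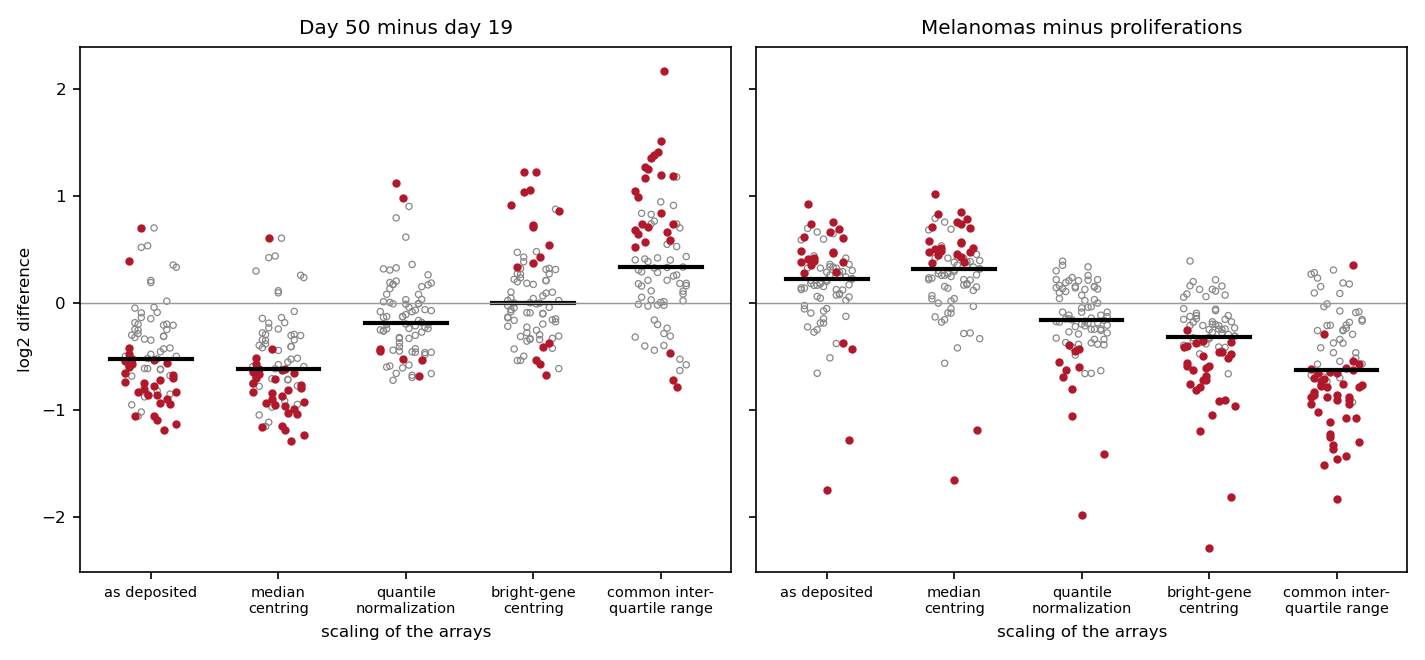
The log2 difference of each of the 82 genes, day 50 minus day 19 on the left and melanomas minus proliferations on the right, under 5 scalings of the arrays. Filled points passed limma's adjusted p under 0.05, open points did not, and bars mark the medians, which move from -0.52 to 0.33 on the left and from 0.22 to -0.62 on the right.

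Messages of mitochondrial DNA were higher at day 50. None of the 13 symbols searched for was in the table, but the older symbols COX2 and ND3, which carry the mitochondrial Entrez identifiers of subunit 2 of complex IV and subunit 3 of complex I, were found after the values were seen. COX2 read 11.78 and 11.81 at day 19 and 12.51 and 12.73 at day 50, higher by 0.82 (SE 0.18, limma adjusted p = 0.00955). ND3 read 12.24 and 12.33 against 12.82 and 13.09, higher by 0.67 (SE 0.13, limma adjusted p = 0.00657). Both stayed above 0 in all 5 scalings, from 0.73 to 2.52 for COX2 and from 0.57 to 2.48 for ND3. The nuclear members had 72, 73 and 58 of 82 below 0 as deposited, with median centring and with quantile normalization, 41 with bright-gene centring and 19 with a common interquartile range, so a contrast in sign with them depended on the scaling.

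Around the complexes, 12 of 42 measured assembly factors were lower at day 50 and 1 higher, with a median of -0.46, where 14.5% of all genes and 37.0% of the brightest 25% were lower. Bright-gene centring gave 10 higher and 7 lower at a median of 0.06, and a common interquartile range 7 higher and 9 lower. The largest falls were in Sdhaf1, which helps insert the clusters of complex II, at -2.34 (SE 0.44), in the complex III factor Uqcc2 at -1.97 (SE 0.16) and in the ATP synthase factor Atpaf2 at -1.90 (SE 0.17), while the complex I factor Ndufaf6 rose by 1.46 (SE 0.31). Of 16 biogenesis regulators 6 were lower and none higher: the mitochondrial transcription factors Tfb2m, Tfam and Tfb1m differed by -2.13 (SE 0.33), -2.12 (SE 0.55) and -2.07 (SE 0.28), and stayed at or below -1.61, -1.60 and -1.55 in all 5 scalings. Of 15 genes of pyruvate dehydrogenase and the citrate cycle 7 were lower, led by Ogdh at -1.84, Pdha1 at -1.66 and Mdh2 at -1.16. Of 20 electron carrier and transport genes 6 were lower, among them Coq5 at -1.37, Etfdh at -1.05 and the ADP/ATP carrier Slc25a5 at -1.04 (0.32 with a common interquartile range), and Atpif1, the inhibitor of ATP hydrolysis by the synthase, was higher by 0.56 (SE 0.14, limma adjusted p = 0.0212). With a common interquartile range this last list had 7 higher and 3 lower, and the citrate cycle list 4 higher and 4 lower. With bright-gene centring the regulators had 5 higher and 3 lower.

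The second comparison set Cdkn2a/Braf against Cdkn2a-only melanocytes at day 19 and so asked for the effect of the Braf allele before arrest. No member passed in limma, with 2 at an unadjusted p under 0.05; of all genes 0.236% were higher and 0.0552% lower, and of the brightest 25% 0.321% and 0.0602%. The median difference was 0.01, and complex medians lay between 0.00 and 0.06. The smallest p-values belonged to Ndufa11 at 0.39 (SE 0.13, limma adjusted p = 0.421), a membrane arm subunit of complex I, Atp5a1 at 0.32, Uqcrc1 at 0.37, Ndufa1 at -0.31 and Ndufb10 at 0.36. Ndufa11 read 9.97 and 10.10 with the allele and 9.59 and 9.70 without it, and did not overlap. The interquartile ranges of these arrays were alike.

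The isoforms and complex II held no call there either. Cox4i1 and Cox4i2 differed by 0.26 and -0.05, Cox6a1 and Cox6a2 by -0.04 and 0.15, Cox6b1 and Cox6b2 by 0.03 and 0.21, and Cox7b and Cox7b2 by -0.06 and 0.11. Cox7a1, Cox7a2 and Cox7a2l differed by 0.35, -0.06 and 0.36, Cox8a, Cox8b and Cox8c by 0.01, -0.37 and -0.01, and Ndufa4 and Ndufa4l2 by -0.06 and 0.27. Atp5g1, Atp5g2 and Atp5g3 differed by -0.12, 0.11 and 0.09, and Sdha, Sdhb, Sdhc and Sdhd by 0.38, -0.06, 0.01 and 0.11. With 2 arrays a group, a missed threshold does not show that the levels were equal.

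The widest gap in it belonged to Ndufs5, an accessory subunit of complex I, at 1.52, and came from 1 array. Ndufs5 was picked out after its values were seen. It read 7.37 and 10.45 in Cdkn2a/Braf cells at day 19, 9.93 and 7.26 at day 50, 7.64 and 7.13 in Cdkn2a-only cells, 8.97 and 9.95 in Cdkn2a/Braf melanoma, 6.89 and 7.16 in Cdkn2a/Braf/Lkb1 melanoma and 7.88, 8.22 and 8.36 in the proliferations. Arrays of the same group thus differed by up to 3.08.

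**Figure D4:**
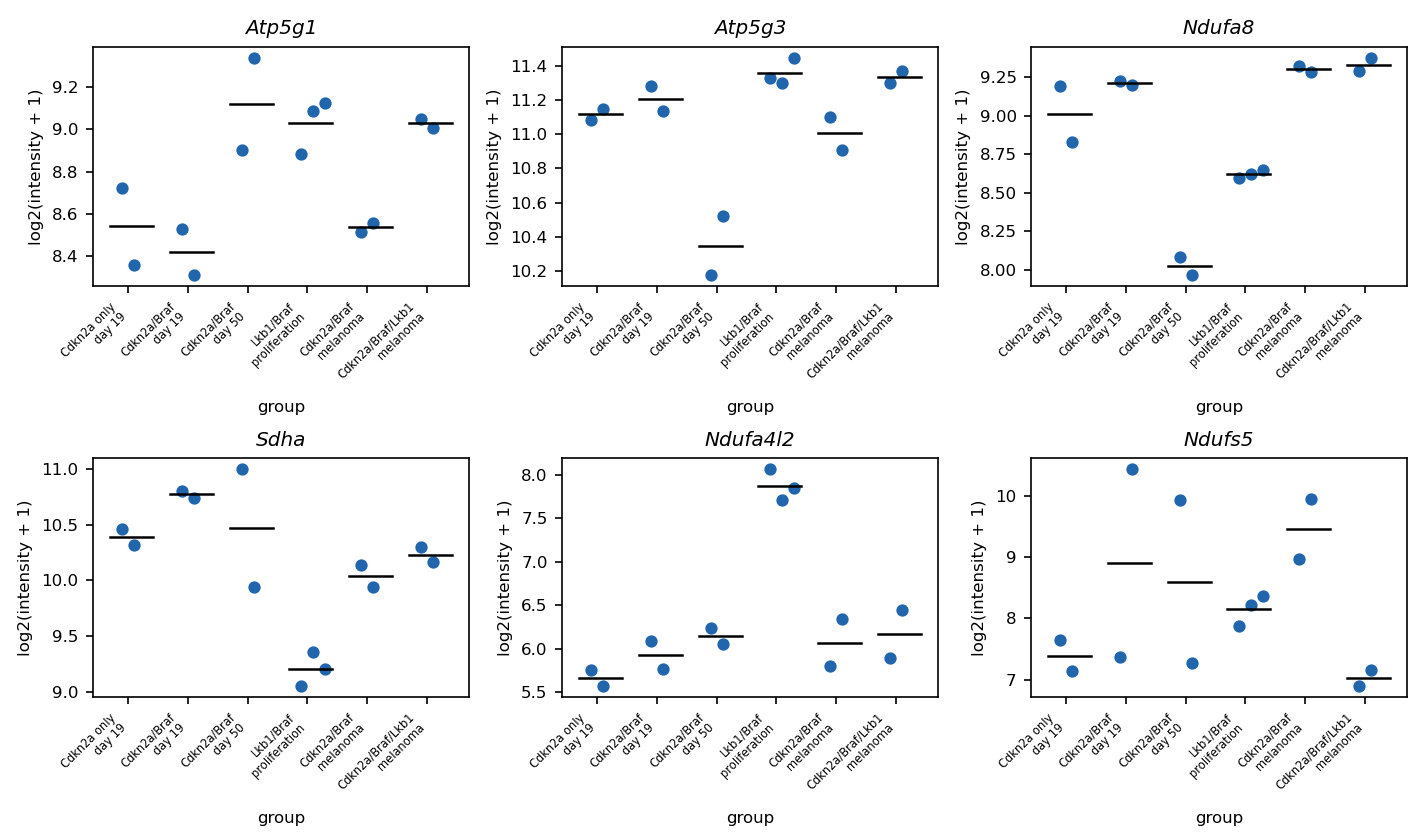
Levels of 6 genes on each array, as log2(intensity + 1), with 1 point per array and a bar at the mean of the group; each panel has its own axis, which does not start at 0. Ndufa8 and Atp5g3 are low at day 50 and Atp5g1 is high there, Sdha is lowest and Ndufa4l2 highest in the proliferations, and Ndufs5 spreads by up to 3.08 within a group.

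The third comparison set Cdkn2a/Braf/Lkb1 against Cdkn2a/Braf melanoma. Lkb1 is the kinase that activates AMPK, a sensor of cell energy. No member passed in limma, with 13 at an unadjusted p under 0.05, while 1.83% of all genes were higher and 0.732% lower, and 1.36% and 0.542% of the brightest 25%. The median difference was 0.19, with 65 members above 0, and 0.09 for the brightest 25%. A common interquartile range turned the members' median to -0.19, and the Cdkn2a/Braf/Lkb1 arrays had the widest interquartile ranges of the series, 2.89 and 2.71. Of 8 macrophage markers 2 were higher with the Lkb1 alteration (summed level 11.80 to 12.06 without it and 12.82 to 12.95 with it), and their part in the member differences was not tested.

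The smallest p-values belonged to Cox6b1, a subunit on the cytochrome c side of complex IV, and to Ndufab1, Cox7a1, Uqcrc1 and Atp5g1. Cox6b1 read 12.01 and 12.33 without and 12.58 and 12.62 with Lkb1 alteration, a difference of 0.43 (SE 0.13, limma adjusted p = 0.114). Ndufab1, the acyl carrier protein of complex I, read 8.76 and 8.72 against 9.39 and 9.43, a difference of 0.67 (SE 0.23, limma adjusted p = 0.151). Cox7a1, the heart and muscle form of subunit 7a, read 6.25 and 5.97 against 7.16 and 7.17, a difference of 1.06 (SE 0.38, limma adjusted p = 0.164). The groups did not overlap for these genes. The medians of the 11 skeletal muscle markers on these arrays were 7.65 and 6.13 without and 6.20 and 7.66 with the Lkb1 alteration, and their summed levels 9.79 to 11.96 and 10.30 to 12.91. Their part in the Cox7a1 difference was not tested. Uqcrc1 and Atp5g1 differed by 0.47 and 0.49.

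The remaining isoforms did not pass there. Cox4i1 and Cox4i2 differed by 0.26 and -0.32, Cox6a1 and Cox6a2 by 0.35 and 0.16, Cox6b2 by 0.75, Cox7a2 and Cox7a2l by 0.30 and 0.09, and Cox7b and Cox7b2 by 0.50 and 0.01. Cox8a, Cox8b and Cox8c differed by 0.28, 0.09 and -0.38, Ndufa4 and Ndufa4l2 by 0.32 and 0.10, and Atp5g2 and Atp5g3 by 0.04 and 0.33. The complex II genes Sdha, Sdhb, Sdhc and Sdhd differed by 0.19, 0.25, 0.09 and 0.39, without a call. Averaging the probe sets of a gene called 2 members higher, where 1.87% of all genes were higher and 0.752% lower: Ndufab1 at 1.07 (SE 0.19, limma adjusted p = 0.0198) and Atp5g2 at 0.56 (SE 0.12, limma adjusted p = 0.0448). Of the surrounding lists 1 gene passed as deposited: Etfb, which feeds electrons from fatty acid oxidation to ubiquinone, was higher by 0.80 (SE 0.17, limma adjusted p = 0.0395). With quantile normalization, a common interquartile range and bright-gene centring it differed by 0.71, 0.42 and 0.70 without a call.

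The fourth comparison set the mean of both melanoma groups against the Lkb1/Braf proliferations, which differ from them in lesion type, in Cdkn2a and in the case of Cdkn2a/Braf melanoma also in Lkb1. In the melanomas 18 of 82 members were higher and 4 lower (limma adjusted p under 0.05), where 20.3% of all genes were higher and 18.7% lower. Of the brightest 25% 46.0% were higher and 5.38% lower, above the 22.0% of the members. The median difference of the members was 0.22, against 0.49 for the brightest 25% and -0.03 for all genes.

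Here too the direction hung on the scaling. Median centring gave 22 higher and 2 lower with a median of 0.31, where 24.3% and 12.9% of all genes and 53.6% and 4.45% of the brightest 25% were called. Quantile normalization gave 0 higher and 11 lower in limma with a median of -0.16 and 19 members at an unadjusted p under 0.05, where 12.0% and 13.4% of all genes and 15.1% and 15.0% of the brightest 25% were called. The lower share thus equalled that of all genes. Bright-gene centring gave 0 higher and 29 lower in limma at a median of -0.32, with 35 members at an unadjusted p under 0.05, where 6.59% and 60.8% of all genes and 15.1% and 22.2% of the brightest 25% were called. A common interquartile range gave 1 higher and 41 lower at a median of -0.62, where 27.7% and 13.7% of all genes and 16.1% and 20.0% of the brightest 25% were called. Only Ndufa4l2 and Cox8b were called in the same direction, lower in the melanomas, in all 5 scalings.

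Ndufa4l2 is a relative of Ndufa4 that hypoxia-inducible factor is known to induce. It read 8.07, 7.71 and 7.84 in the proliferations, 5.80 and 6.34 in Cdkn2a/Braf melanoma and 5.89 and 6.45 in Cdkn2a/Braf/Lkb1 melanoma. The sorted cells had 5.57 to 6.24, so the proliferations stood above all other arrays. The log2 difference was -1.75 (SE 0.18, limma adjusted p = 8.69e-05) and ran from -2.29 to -1.66 over the scalings, and the gene was called without each of the 7 arrays in turn. Its partner Ndufa4 differed by -0.15 and did not pass.

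Cox8b, the heart and muscle form of subunit 8, was the other. It read 6.62, 8.05 and 7.94 in the proliferations, 6.68 and 5.76 in Cdkn2a/Braf melanoma and 5.74 and 6.87 in Cdkn2a/Braf/Lkb1 melanoma, with overlap. The difference was -1.28 (SE 0.40, limma adjusted p = 0.03), kept in 3 of 7 fits without an array. Skeletal muscle markers varied over the same arrays: their median was 7.33, 10.95 and 10.86 in the proliferations, 7.65 and 6.13, then 6.20 and 7.66 in the melanomas, and the higher array of each melanoma pair was the same for Cox8b. Of the 11 muscle markers 6 were lower in the melanomas, and their summed level was 11.37 to 14.69 in the proliferations and 9.79 to 12.91 in the melanomas. The part of muscle in the Cox8b difference was not tested. Proliferation arrays 2 and 3 were also left out together, a choice made after the data and their muscle markers were seen. These held the higher Cox8b values of the group, so a smaller Cox8b difference was fixed by the choice. With the 1 proliferation array that remained, Cox8b differed by -0.36 and Ndufa4l2 by -1.95.

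Other muscle isoforms varied with the same arrays. Cox6a2, the heart and muscle form of subunit 6a, read 7.32, 8.61 and 8.18 in the proliferations and 7.53, 7.07, 7.11 and 7.82 in the melanomas, a difference of -0.66 (SE 0.28, limma adjusted p = 0.0849). Cox7a1 read 6.30, 7.58 and 7.57 in the proliferations and differed by -0.51 (SE 0.29, limma adjusted p = 0.178). The sign of both turned without proliferation arrays 2 and 3, to 0.06 and 0.34. Those arrays also held the higher values of both genes in the group, so this turn followed from the choice of arrays. Ucp1, the defining gene of brown fat, where Cox8b and Cox7a1 are also made, stayed between 3.9 and 5.1 on all arrays. Of the 5 brown adipocyte markers 3 were lower in the melanomas, with a median difference of -0.63 and summed levels of 8.58 to 8.72 in the proliferations and 7.43 to 8.22 in the melanomas. The part of either tissue in the isoform differences was not tested.

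**Figure D5:**
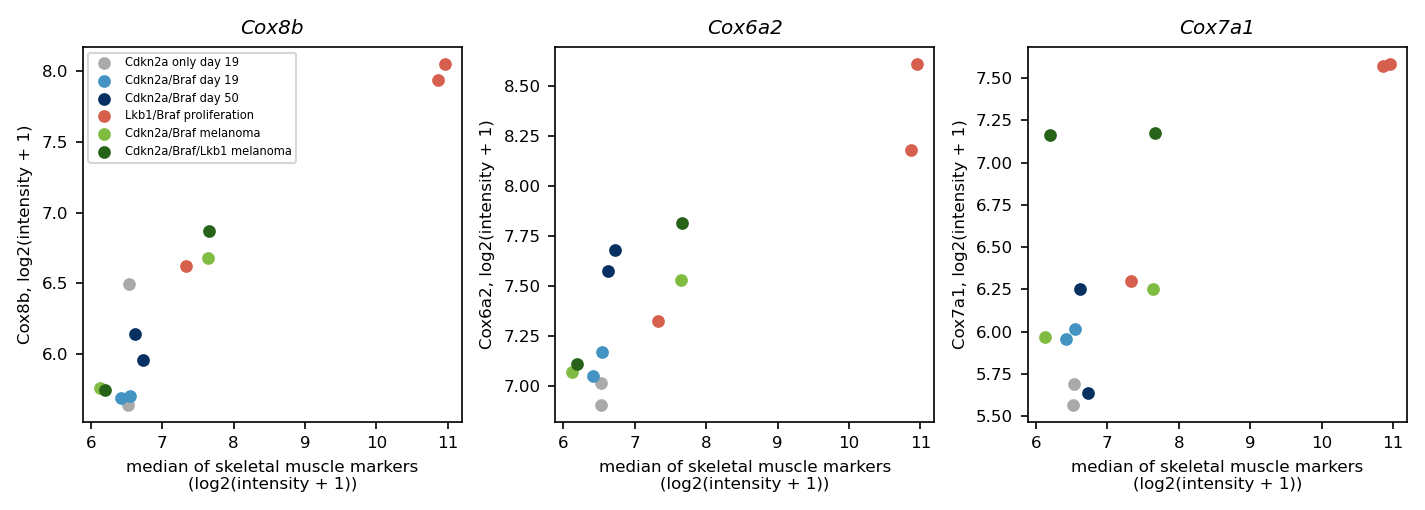
Levels of Cox8b, Cox6a2 and Cox7a1 on each array (log2(intensity + 1), vertical axes) against the median level of 11 skeletal muscle markers on the same array (horizontal axes), coloured by group. Proliferation arrays 2 and 3 lie at the upper right in every panel, at marker medians of 10.95 and 10.86, and the Cdkn2a/Braf/Lkb1 melanomas have high Cox7a1 at marker medians of 6.20 and 7.66.

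The window around the start of Cox8b is shown as that of the muscle isoform called here (GRCm38.p6, chr7:140900397-140900696, minus strand, 5′ to 3′). Capitals mark the letters TATAAA, here after the start.
Cox8b: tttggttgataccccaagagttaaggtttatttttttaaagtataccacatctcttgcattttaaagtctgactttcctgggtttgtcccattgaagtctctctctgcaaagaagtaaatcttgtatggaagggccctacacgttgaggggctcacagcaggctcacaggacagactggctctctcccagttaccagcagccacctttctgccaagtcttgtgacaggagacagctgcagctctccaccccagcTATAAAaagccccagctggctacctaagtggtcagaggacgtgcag

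The other lower members were tissue isoforms as well, all dim: Cox8c, a testis form, at -0.43 (SE 0.14, limma adjusted p = 0.04), and Cox7b2 at -0.37 (SE 0.11, limma adjusted p = 0.0229), which a common interquartile range turned to 0.35. Cox8c lost its call with median centring, quantile normalization and a common interquartile range (limma adjusted p = 0.0896, 0.344 and 0.411). As deposited the 8 tissue isoforms thus held 4 lower calls, and the other 11 members of complex IV 2 higher ones. Of all genes 18.7% were lower and 20.3% higher. This split depended on the scaling: the isoforms had 2 lower with median centring, and the other 11 had 8 lower with a common interquartile range and 5 lower with bright-gene centring. Cox4i2 and Cox6b2 differed by -0.06 and 0.60 without a call.

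Complex II gave 3 of its 4 genes higher as deposited, and Sdha had the largest increase among the members. Of all genes 20.3% were higher, and of the genes used for bright-gene centring 46.0%. Median centring also gave 3 higher. With quantile normalization and bright-gene centring no gene of the complex was called. A common interquartile range gave 0 higher and 1 lower. Sdha read 9.05, 9.36 and 9.21 in the proliferations and 10.14, 9.94, 10.30 and 10.16 in the melanomas, a difference of 0.93 (SE 0.21, limma adjusted p = 0.00648). The proliferations lay below all other arrays of the series. Sdhb differed by 0.74 (SE 0.16, limma adjusted p = 0.00572) and Sdhc by 0.39 (SE 0.09, limma adjusted p = 0.00821), both called without each array, while Sdhd at 0.17 did not pass. Over the scalings Sdha stayed above 0, at 0.23 to 1.02, but was called in 2 of 5, and Sdhc turned to -0.15, -0.29 and -0.15 with quantile normalization, a common interquartile range and bright-gene centring. The Sdha window is shown because it held 3 NRF1 matches, in capitals (GRCm38.p6, chr13:74350191-74350490, minus strand, 5′ to 3′).
Sdha: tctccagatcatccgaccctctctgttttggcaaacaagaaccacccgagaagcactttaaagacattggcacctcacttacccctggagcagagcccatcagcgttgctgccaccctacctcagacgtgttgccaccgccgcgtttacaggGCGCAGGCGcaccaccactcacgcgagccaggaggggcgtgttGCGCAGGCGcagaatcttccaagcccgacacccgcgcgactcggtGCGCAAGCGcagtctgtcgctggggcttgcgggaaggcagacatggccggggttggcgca

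Complex I gave 9 of 34 higher and none lower as deposited, where 46.0% of the brightest 25% of genes were higher. With quantile normalization, bright-gene centring and a common interquartile range it gave 0 higher and 4, 7 and 12 lower. Ndufa6, an accessory subunit of the quinone arm, read 8.82, 8.67 and 8.90 in the proliferations and 9.42 to 9.64 in the melanomas, higher by 0.75 (SE 0.10, limma adjusted p = 0.000329). Ndufa8 read 8.60, 8.62 and 8.65 against 9.28 to 9.37, higher by 0.69 (SE 0.10, limma adjusted p = 0.000708). Ndufs1, the largest core subunit, was higher by 0.66 (SE 0.16, limma adjusted p = 0.00872). These 3 kept their sign in the 5 scalings, at 0.19, 0.16 and 0.09 or more, and their call in 2 of them.

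Complexes III, IV and V gave few calls as deposited, and with a common interquartile range complex III had 4 lower and complex V 13 lower, with none higher. Uqcrfs1 was higher by 0.29 (SE 0.09), and -0.25 with quantile normalization. In complex IV, Cox4i1 was higher by 0.38 (SE 0.13) and Cox5b, a zinc-binding subunit, by 0.36 (SE 0.09). In the ATP synthase, Atp5j2 was higher by 0.46 (SE 0.17), Atp5c1, the central stalk subunit, by 0.41 (SE 0.12) and the catalytic beta subunit Atp5b by 0.28 (SE 0.09). All 5 turned below 0 with bright-gene centring, at -0.15, -0.18, -0.07, -0.13 and -0.25. The copies of the c subunit, Atp5g1, Atp5g2 and Atp5g3, differed by -0.25, 0.19 and -0.19, and Cox6a1, Cox6b1, Cox7a2, Cox7a2l, Cox7b and Cox8a by -0.27, 0.18, 0.65, 0.07, 0.26 and 0.24, none with a call.

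Cell type markers differed widely between these lesions. All 8 keratinocyte markers were lower in the melanomas (summed level 14.48 to 14.57 in the proliferations, 9.22 to 12.80 in the melanomas), as were all 6 adipocyte markers (12.26 to 12.61 against 9.37 to 10.92) and 9 of 12 melanocyte markers (11.80 to 11.96 against 9.33 to 10.17), while 4 of 8 endothelial markers were higher (9.75 to 9.87 against 10.66 to 11.52). Their part in the member differences was not tested. Whichever array was left out, the count of higher members fell below the 18 found as deposited. The count of lower members did not exceed 4. No share of all genes is given for those fits, so their counts are not read as a result about the members.

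The mitochondrial messages were lower in the melanomas. COX2 read 12.75, 12.66 and 12.74 in the proliferations and 12.03 to 12.56 in the melanomas, a difference of -0.49 (SE 0.13, limma adjusted p = 0.0162), and ND3 differed by -0.40 (SE 0.10, limma adjusted p = 0.012). Both stayed below 0 in all 5 scalings. The nuclear members had 19 of 82 below 0 as deposited and 15 with median centring, but 55, 72 and 70 with quantile normalization, a common interquartile range and bright-gene centring, so the sign differed from that of most members in 2 of 5 scalings.

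Of 42 assembly factors 16 were higher and 1 lower, led by Cox19 at 1.24, Sdhaf4 at 1.24 and Ndufaf5 at 1.14, with Acad9 at -0.73, where 20.3% of all genes were higher. Of 16 biogenesis regulators 5 were higher, among them Gabpb1 at 0.77, Tfb2m at 0.76 and Gabpa at 0.60. Of 20 carrier and transport genes 7 were higher, led by the outer membrane channels Vdac3 at 1.15 and Vdac2 at 1.00 and by Slc25a4 at 0.84. Of 15 genes of pyruvate dehydrogenase and the citrate cycle 7 were higher, with Suclg2 at 1.23, Idh3g at 0.76 and Sucla2 at 0.66, and citrate synthase, Cs, was lower at -0.34. With a common interquartile range Gabpa, Slc25a4, Idh3g and Vdac2 were at -0.17, -0.22, -0.03 and -0.01. With bright-gene centring the assembly factors had 4 higher and 7 lower, the regulators 0 and 7, the carriers 2 and 9, and the citrate cycle list 0 and 2.

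Windows around gene starts were searched for 4 motifs on both strands. Member windows on chr18 were left out of the search, while the windows of all genes kept that chromosome. RefSeq windows then covered 67 of the 82 members (72 windows, against 32851 for all genes). The NRF1 and YY1 motifs were searched in shortened forms. The NRF1 motif GCGCANGCG was in 20 of 72 member windows (27.8%) and 6.25% of all windows, and the ETS motif CCGGAAG in 17 (23.6%) against 8.86%. The YY1 motif AAGATGGCG was in 7 (9.72% against 1.4%) and TATAAA in 9 (12.5% against 13.6%). No motif contains another. Lower at day 50 as deposited were 24 genes with a window. Of these, 9 held the NRF1 motif, 3 the ETS motif, 3 the YY1 motif and 1 TATAAA. Of the other 43 genes 10, 14, 4 and 7 did. Those calls changed with the scaling, and a motif difference between the 24 and the 43 genes was not tested. A match is a description of the letters in the window, and binding was not measured.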

How the data were processed

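The authors deposited linear intensity values per probe set of a whole-transcript Affymetrix array, made with RMA per the submitters' processing notes, with no version named; array medians of the linear values ran from 68.3 to 80.5. Per the labels' protocols, RNA came from a Qiagen RNeasy extraction, and NuGEN Ovation V2 and Encore kits amplified and labelled it. Deposited values ran from 3.35 to 17698, and were taken as log2(intensity + 1). Of 34760 probe sets the platform table lists 22961, 21640 with 1 gene and 1321 with several, and 11799 are unnamed here; 21553 matched RefSeq by Entrez identifier. The brightest set stood for each of 19937 genes. Linear models were fitted with limma 3.58.1 (R 4.3.3) over 6 groups and 13 arrays, with moderated variances (7 residual and 3.08 prior degrees of freedom), Benjamini-Hochberg adjustment over all genes, a threshold of 0.05 and 4 contrasts. They were also run on simulated data with 1 spread per gene over all arrays. The wider gap between the day 50 arrays was not simulated, so that run cannot vouch for the day 50 calls. Arrays of a group were counted as the replicates the labels name.

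Named members were, per comparison and complex, up to 3 called genes with the largest increase and decrease; where fewer than 5 members were called, the 5 with the smallest p; and in every comparison the isoform pairs, the c-subunit genes and the Sdh genes. Of the other lists up to 3 called genes in each direction were named. Members and lists were chosen with earlier results of these data known. Replicate numbers did not pair the arrays: correlations of deviations from group means were -0.046 for day 19 with day 50, 0.06 for the Braf comparison and -0.117 between the melanoma groups. Alternatives were other scalings, a pseudocount of 16, a filter of log2 above 6 on 2 arrays, trend and robust moderation, the mean of probe sets, fits on the compared groups alone, a replicate block and leaving out each array. No genome came with these data, and promoter windows are those of RefSeq (GRCm38.p6).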

Additional observations from a re-analysis of the deposited data

How the results depend on the processing

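At day 50 the count of higher members was 1 with median centring, 22 with a common interquartile range, 12 with bright-gene centring, 1 with the mean of probe sets and 0 on the compared groups alone (26 at an unadjusted p under 0.05 in limma). The count of lower members was 5 with quantile normalization, 3 with a common interquartile range, 5 with bright-gene centring and 0 on the compared groups alone. The median was -0.19, 0.33 and -0.0007 with quantile normalization, a common interquartile range and bright-gene centring. Leaving out an array gave 0 to 3 higher, 9 to 42 lower and a median of -0.67 to -0.30. No share of all genes is given for the fits that left out an array, so their counts are not read as a result about the members. A common interquartile range reversed Cox7a2l (0.59), Cox4i1 (1.05), Atp5j2 (0.55), Atp5g3 (0.28), Atp5a1 (0.52), Cox6a1 (1.25), Cox6b1 (1.38), Cox7b (1.19), Cox7b2 (-0.79) and Sdhc (0.71). For the Braf allele the median was -0.055 with median centring, -0.11 with a common interquartile range and -0.017 to 0.057 without an array. For Lkb1 it was 0.10, -0.19 and 0.091 with quantile normalization, a common interquartile range and bright-gene centring, and the mean of probe sets gave 2 higher members.

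For melanomas against proliferations the higher count was 0 with quantile normalization, 1 with a common interquartile range and 0 with bright-gene centring. The lower count was 2 with median centring and 11, 41 and 29 with those 3 scalings, and the medians were 0.31 with median centring and -0.16, -0.62 and -0.32. A fit with proliferation array 1 alone, added after seeing the data, left 1 array in that group, and its calls are not counted. Leaving out an array gave 10 to 15 higher, 1 to 4 lower and a median of 0.19 to 0.30. These counts too have no share of all genes beside them and are not read as a result about the members. Reversed with quantile normalization, a common interquartile range and bright-gene centring were Sdhc (-0.15, -0.29, -0.15) and Uqcrfs1 (-0.25, -0.21, -0.24). Reversed with the last pair were Cox4i1 (-0.88, -0.15), Cox5b (-0.77, -0.18), Atp5j2 (-0.76, -0.072), Atp5c1 (-0.65, -0.13), Atp5b (-0.83, -0.25), Cox6b1 (-1.22, -0.36) and Cox7a2l (-1.07, -0.46), and with a common interquartile range also Cox7b (-0.88), Cox7b2 (0.35) and Atp5g2 (-1.11). The cause of these changes was not tested.

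With a replicate block 1 member was higher and 21 lower at day 50, 15 higher and 3 lower in the melanomas, and 0 in the Braf and Lkb1 comparisons, where 1 and 9 had an unadjusted p under 0.05 in limma. Cox8b then lost its call. No share of all genes is given for the replicate block or for the mean of probe sets at day 50. Those counts are not read as a result about the members. A crossed pairing of the melanoma arrays, added after seeing the data, gave 0 higher and 0 lower. The pseudocount of 16, the level filter and trend and robust moderation kept the counts within 1.5 times. With 2 or 3 arrays a group, small differences could not be detected.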

Other observations

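Some members had further probe sets whose values differed from those used, and these were picked out after their values were seen and not tested. The second probe set of Atp5g2 read 9.16 and 9.25 in Cdkn2a/Braf melanoma and 10.75 and 10.77 in Cdkn2a/Braf/Lkb1 melanoma, a difference of 1.55, where the set used differed by 0.04. The second set of Ndufab1 differed by 1.47 in the same comparison, and the second set of Uqcr11, a small subunit of complex III, read 7.25 and 7.79 against 8.92 and 8.87, a difference of 1.38 where the set used gave 0.65.

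The third probe set of Atp5md, a subunit that links ATP synthase dimers, read 7.63, 7.69 and 7.94 in the proliferations and 9.14 to 9.86 in the melanomas, a difference of 1.73 where the set used gave 0.29. The second set of Ndufs3 differed by 0.07 at day 50, where the set used fell by 1.09. The fifth set of Atp5l read 10.69 on the first day 50 array and 7.99 on the second.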
